A study of Mus musculus with 3 samples.

Results

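Mature neutrophils carrying little *Il1b* transcript were picked out of droplet sequencing of the mouse meninges, the membranes that wrap the brain. A barcode counted as a cell when it held at least 500 UMIs (unique molecular identifiers, one for each captured transcript), under 8.3% mitochondrial UMIs and a number of genes within set bounds. Cells were kept when *S100a8* and *S100a9* together made up at least 4% of their UMIs, *Camp* and *Ngp* together made up under 4%, at least 2 of the 7 genes *Csf3r*, *Retnlg*, *Clec4d*, *Mmp8*, *Mmp9*, *Cxcr2* and *Stfa2l1* were detected, and *Il1b* made up under 0.15%. This left 1297 of 7057 cells. The rule read those 12 genes in these same cells, so their levels below describe the choice and are not findings.

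The mice were C57BL/6J males aged 10 to 12 weeks. They either stayed unstressed in their home cage (HC) or went through 14 days of chronic social defeat (CSD), in which an intruder faces an aggressive CD-1 resident, and only defeated mice that behaved as stress-susceptible were used. Live nucleated single cells were sorted without any immune marker, and each library pooled 4 mice: 2 HC libraries from 8 mice and 1 CSD library, each in its own lane of 1 chip. Defeat therefore cannot be told apart from the single pool and lane that carried it. Every p-value below rests on the spread between the HC pools, which the fits share across genes. The libraries totalled 9891861 UMIs (first HC pool), 8814690 UMIs (second HC pool) and 10206236 UMIs (CSD). The selected cells numbered 397, 274 and 626 and summed to 836017, 533754 and 1346006 UMIs. Wherever 3 values are listed, they follow this order: HC replicate 1, HC replicate 2, CSD replicate 1.

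Neutrophils are short-lived phagocytes that mature in bone marrow and fill successive granules on the way, first azurophil granules, then specific granules with the products of *Camp*, *Ngp* and *Ltf*, and last gelatinase granules with that of *Mmp9*. G-CSF drives their output, and signals through CXCR2 draw mature cells out of the marrow. *Il1b* encodes the inflammatory cytokine interleukin-1 beta, which mature neutrophils switch on when activated.

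HC replicate 2 stood apart in quality: 24.1% of its UMIs lay in barcodes of at most 100 UMIs, which hold free RNA and no cell, against 7.87% in HC replicate 1 and 5.48% in CSD. The share of a gene set in the selected cells, divided by its share in those empty barcodes, is an upper limit on how much of the cells' RNA was free RNA. That limit was 46.2%, 46.5% and 41.1% from 5 B cell genes, 14.8%, 34.1% and 14.8% from mitochondrial genes and 19.1%, 25.5% and 8.27% from fibroblast genes. An empty-barcode profile was subtracted at the B cell values, which the other sets show to remove too much, and again at the lowest limit of each library, a setting chosen after seeing the data. The lowest limit was smallest in CSD, so that setting takes a smaller share from CSD than from HC. The true share is unknown. The HC libraries shared 8 cell barcodes with each other, and CSD shared 6 and 3 with them; 1 shared barcode belonged to a selected cell in both libraries. Doublets were not removed. The highest Scrublet doublet scores of each library, from the score that marks its top 5.1% of cells and with ties included, covered 5.89%, 6.23% and 5.19% of all cells and 34, 20 and 44 of the selected cells. The median selected cell held 1717, 1581 and 1938 UMIs.

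All 5 marker genes of these cells belong to the rule, so the choice itself fixed that they are present, and their levels are a description only. *Retnlg*, which encodes a resistin-like protein, stood at 35668, 42143 and 47697 CPM (the UMI count of a gene divided by all UMIs in a library's summed cells, times 1e6), against 1938, 2847 and 3066 CPM in sorted cells with at least 2 T or NK cell genes, which should lack it. *Mmp8*, neutrophil collagenase, stood at 1715, 2115 and 2322 CPM against 104, 156 and 192 CPM there. *Mmp9*, gelatinase B, stood at 706, 879 and 663 CPM against 52.3, 72.4 and 51.0 CPM. Each was several times its level in the cells with T or NK cell genes. The receptor genes followed: *Csf3r*, for G-CSF, stood at 238, 197 and 190.2 CPM against at most 36.7 CPM. *Cxcr2*, for neutrophil-attracting chemokines, stood at 333, 347 and 397 CPM against 16.5, 28.6 and 9.37 CPM. Receptor levels in the selected cells were likewise above those of the cells with T or NK cell genes in all 3 libraries. That comparison set also carried erythroid markers, which summed to 22537, 3434 and 43863 CPM in it.

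**Figure D1:**
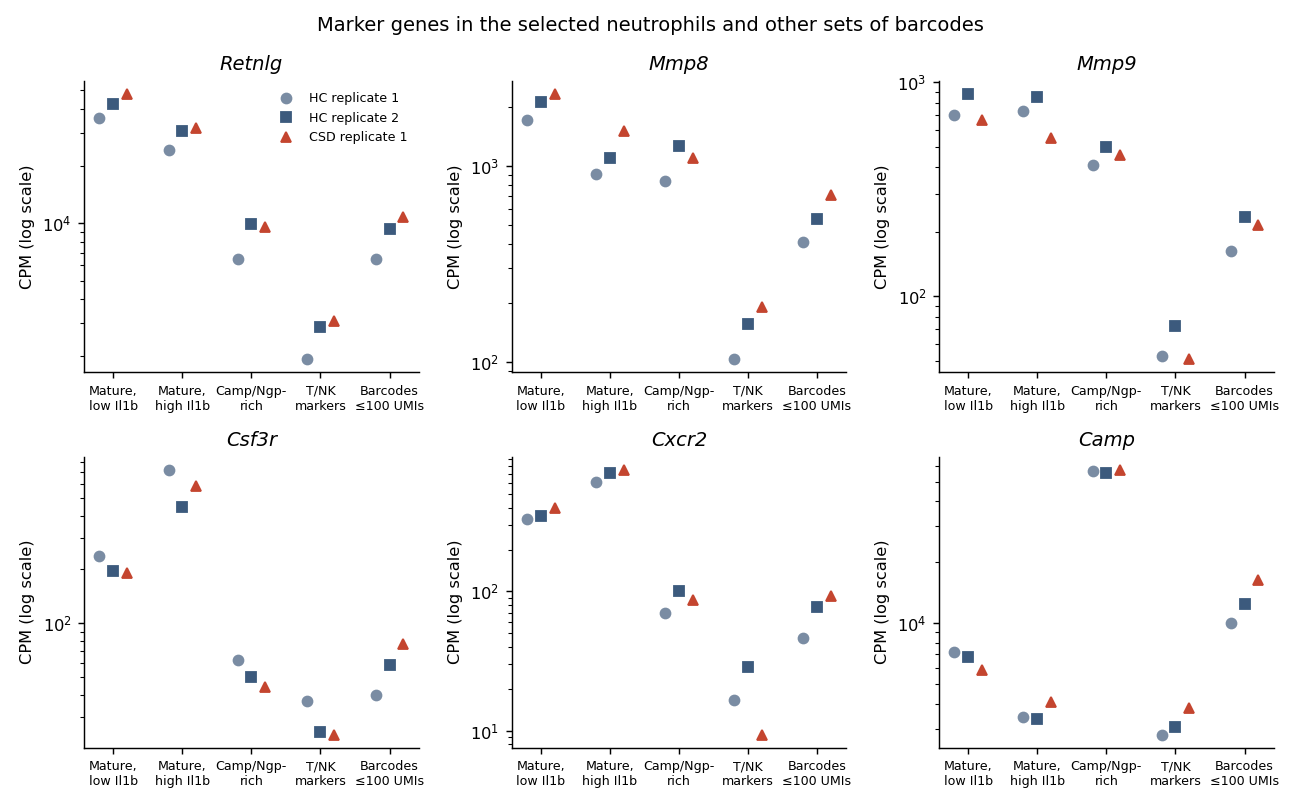
Levels of the 5 markers and *Camp* in CPM (y axis, log scale) in 5 sets of barcodes (x axis), with 1 point per library. The selected cells held 35668, 42143 and 47697 CPM of *Retnlg*, far above the cells with T and NK genes, and less *Camp* (7226, 6825 and 5886 CPM) than the *Camp*- and *Ngp*-rich immature neutrophils (56407, 54801 and 57046 CPM).

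At the S100 edge the choice was less clean. The 34 selected cells with 4 to 6% of their UMIs in *S100a8* and *S100a9* held 5599 CPM of *Retnlg*, and the 1777 unselected cells at 2 to 4% held 2592 CPM. Under 8% there were 53 selected cells (18, 17 and 18), 4.09% of the cells and 7.72% of their UMIs. They held 6112 CPM of *Retnlg* against 45982 CPM in the others, and 13144 against 36.7 CPM of *Jchain*, an immunoglobulin chain of plasma cells. Single cells decided such genes. In HC replicate 1 the top pair of cells held 902 and 395 of 1336 *Jchain* UMIs, and in the other libraries the top cell held 708 of 736 and 741 of 777. *Elane*, neutrophil elastase of the azurophil granule, had 365, 286 and 196 of its 994 UMIs in 3 cells of HC replicate 1 and 487 of 629 in 1 cell of CSD.

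The other limits cut through a continuum. The 104 selected cells at 3 to 4% *Camp* and *Ngp* held 34657 CPM of *Retnlg*, and the 76 unselected cells at 4 to 5% held 30453 CPM. The 123 selected cells at 0.10 to 0.15% *Il1b* held 39413 CPM and the 72 unselected cells at 0.15 to 0.20% held 37643 CPM. *Cxcl2*, a chemokine gene that calls in further neutrophils, was at 2033 CPM inside that last limit and 3599 CPM outside it. The *Il1b* limit was met mostly by absence, since 68.8%, 65.0% and 66.9% of the selected cells held no *Il1b* UMI. A cell under 667 UMIs could pass only with none, and 2.52%, 6.57% and 1.12% of the selected cells were that shallow. Low *Il1b* thus includes cells in which the gene was not detected at this depth.

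Calprotectin dominated the RNA of the selected cells. *S100a8* alone took 162322, 136889 and 161816 CPM and its partner *S100a9* 99624, 108233 and 116851 CPM. *Tmsb4x*, the actin-sequestering thymosin beta 4, was at 29047, 29337 and 32975 CPM and *Lyz2*, lysozyme, at 13549, 15046 and 14264 CPM. The ferritin chains that store iron were close in all libraries, *Ftl1* at 7055, 7153 and 7591 CPM and *Fth1* at 6201, 6720.3 and 6595 CPM. *Actb*, beta actin, was uneven between the HC libraries, at 4898, 9754 and 4781 CPM. *Slpi* and *Wfdc21*, secreted protease inhibitors, were at 2982, 3044 and 4091 CPM and 4825, 3822 and 5604 CPM. Among azurophil genes, *Cd63*, a granule membrane tetraspanin, was at 542, 449.6 and 395 CPM and *Mpo*, myeloperoxidase, at 259.6, 24.4 and 81.0 CPM, with 70.5%, 38.5% and 71.6% of the *Mpo* UMIs in the top 3 cells of a library. *Cyba*, the p22phox subunit of the NADPH oxidase, was at 1911, 2246 and 2242 CPM.

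Beside the 463 mature neutrophils high in *Il1b* (144, 88 and 231 cells, with medians of 1016.5, 1005 and 1115 UMIs), the selected cells held less of many genes and more of fewer. Among 969 genes of at least 100 CPM in either set, 178 were higher and 424 lower in the selected cells in all 3 libraries. The 10 highest were *Jchain*, carried by the few cells named above, *Serpinb1a*, *Cd177*, *Adpgk*, *Ifitm6*, *Ly6c2*, *Ngp*, *Tmsb10*, *Ceacam10* and *Lcn2*. *Serpinb1a*, an inhibitor of neutrophil elastase, stood at 183, 163 and 228 CPM against 68.8, 50.6 and 74.3 CPM. *Cd177*, a neutrophil surface glycoprotein, stood at 229.7, 307 and 291 CPM against 68.8, 101 and 123 CPM.

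The 10 lowest were *Il1b* itself, *Ccrl2*, *Sirpb1c*, *Sirpb1b*, *Hcar2*, *Hist1h2bc*, *St3gal6*, *Tnfaip2*, *Ifitm1* and *H2-Q10*. *Ccrl2*, a chemerin-binding receptor, was at 31.1, 28.1 and 24.5 CPM against 244, 273 and 119 CPM. *Tnfaip2*, a gene induced by tumor necrosis factor, was at 294, 238 and 160.5 CPM against 963, 668 and 509 CPM. *Cxcl2* was at 1612, 1814 and 1238 CPM against 3783, 3847 and 3822 CPM. Among the markers, *Csf3r* and *Cxcr2* were also lower in the selected cells than in those high in *Il1b*, which held 719, 445 and 587 CPM and 613, 709 and 747 CPM. The limit split 1 population by its own transcripts, so these differences describe the split and carry no test.

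Beside the 1145 immature neutrophils, those with at least 4% of their UMIs in *Camp* and *Ngp*, 451 of 916 genes were higher and 282 lower in the selected cells in all 3 libraries. After *Jchain*, the highest were *Stfa2l1*, *Gm5483*, *Amica1*, *Clec4d*, *Ccl6*, *H2-Q10*, *Cd300ld*, *Il1f9* and *Retnlg*. *Gm5483*, a stefin A family gene, stood at 466, 463 and 665 CPM against 56.3, 21.6 and 41.1 CPM. *Ccl6*, a CC chemokine of myeloid cells, stood at 2671, 2775 and 2687 CPM against 402, 434 and 352 CPM. *Il1f9*, which encodes interleukin-36 gamma, stood at 172, 165 and 142 CPM against 29.3, 25.6 and 30.3 CPM. In each of the 3 libraries these genes were higher in the selected cells.

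The lowest beside the immature cells were *Camp*, *Orm1*, *Lta4h*, *Ltf*, *Ngp*, *Chil3*, *Zmpste24*, *Cebpe*, *Fcnb* and *Serpinb1a*. *Ltf*, lactoferrin, was at 974, 1242 and 1002 CPM against 5712, 7645 and 7943 CPM. *Lta4h*, whose enzyme makes leukotriene B4, was at 34.7, 30.0 and 26.7 CPM against 217, 223 and 223 CPM. *Cebpe*, a transcription factor of the specific granule stage, was at 191, 161 and 141 CPM against 739.7, 693 and 759 CPM. *Serpinb1a* therefore stood between the neutrophil sets, below the immature cells and above those high in *Il1b*.

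The selected cells were not uniform. After every cell was thinned to 500 UMIs, the variance-to-mean ratio over cells, which is near 1 for counting noise alone, had a median of 0.965 over 773 genes. The 15 most uneven genes were *S100a8*, *S100a9*, *Retnlg*, *Malat1*, *Gm5483*, *Ngp*, *Cxcl2*, *Ccl6*, *Camp*, *Fth1*, *Ifitm1*, *Ifi27l2a*, *Ftl1*, *Lyz2* and *Cd74*. Among them *S100a8*, *S100a9*, *Retnlg*, *Ngp* and *Camp* are genes of the rule, so the choice shaped their spread. *Gm5483* had a ratio of 3.97, 3.81 and 3.94 and was seen in only 11.8%, 12.4% and 14.1% of thinned cells, a share that depends on the depth of 500 UMIs. *Cxcl2* had a ratio of 3.11, 3.11 and 2.30 and was seen in 43.8%, 43.4% and 37.1% of them. The interferon-induced *Ifitm1* and *Ifi27l2a* had ratios of 2.01, 1.86 and 2.69 and of 2.12, 1.85 and 2.77.

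Dividing the selection by its remaining *Camp* and *Ngp* showed some genes outside the rule differing along it and others not. With *Camp* and *Ngp* under 0.5% of UMIs (70, 34 and 23 cells), *Ifitm1* stood at 230.4, 429 and 1049.8 CPM. At 0.5 to 1.5% (225, 164 and 463 cells) it was at 236, 171 and 936 CPM, and at 1.5 to 4% (102, 76 and 140 cells) at 58.5, 82.9 and 261 CPM. *Ifitm1* was lowest in every library in the cells nearest to the immature ones, though in HC replicate 1 the first groups were alike, and CSD was above both HC libraries in all 3 groups. *Wfdc17*, of the whey acidic protein family, was at 196, 191 and 3022 CPM in the first group and 169, 77.7 and 256 CPM in the last. The gap between CSD and HC in *Wfdc17* was thus widest in the cells poorest in *Camp* and *Ngp*. *Ifitm3* did not follow, at 1359, 1645 and 2290.4 CPM in the first group and 1557, 1544 and 2500.3 CPM in the last, and *Lrg1* went from 184, 309.9 and 1559 to 249, 435 and 1017 CPM, highest in the last group in both HC libraries and in the first in CSD. Depth moved along the same axis, with median UMIs of 1194.5, 1212.5 and 1418 in the first group and 2671.5, 2473.5 and 2658.5 in the last. Grouped by depth instead, *Ifitm1* was at 314, 436 and 2024 CPM in cells under 1000 UMIs, 265, 203 and 1138 CPM in a middle group of cells (median 1449.5, 1462 and 1491 UMIs) and 105, 100.1 and 488 CPM in the deepest cells (median 2631, 2746 and 2558 UMIs), a slope of similar size, and depth and the *Camp* and *Ngp* share were not separated.

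**Figure D2:**
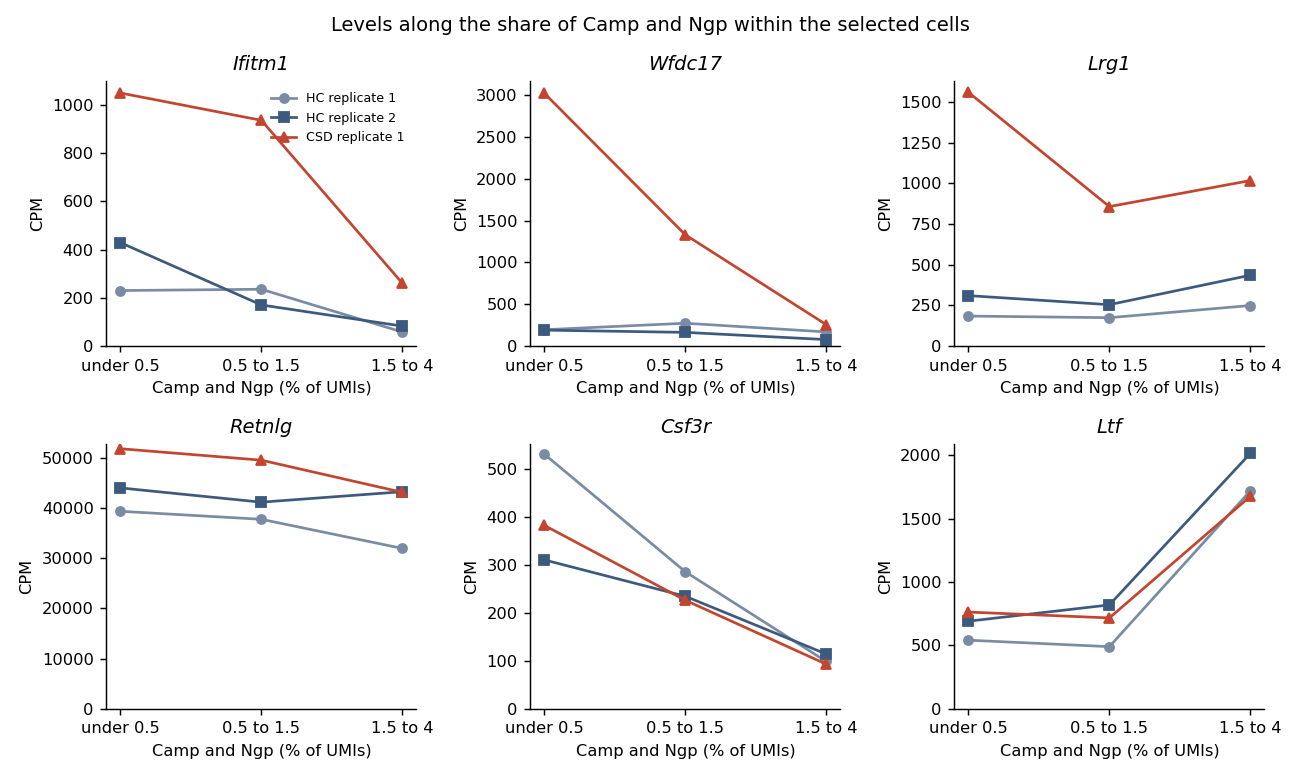
Levels in CPM (y axis) of 6 genes in the selected cells grouped by the share of *Camp* and *Ngp* in their UMIs (x axis, %), with 1 line per library. *Ifitm1* in CSD went from 1049.8 to 261 CPM along the axis and lay above both HC libraries in all 3 groups, while *Lrg1* was highest in the last group in both HC libraries.

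The defeat library held a larger share of these cells. They made up 15.3% of all cells in HC replicate 1 (exact Clopper-Pearson 95% interval 13.9 to 16.7), 16.1% in HC replicate 2 (14.4 to 17.9) and 22.7% in CSD (21.2 to 24.3). CSD was 7.03 percentage points over the HC mean and its interval lay above both HC intervals, which cover counting error only. With 1 library against 2 no permutation test can reach 0.05, so none is given. Among neutrophils the share was much the same: the selected cells were 73.4% (69.4 to 77.1), 75.7% (70.9 to 80.0) and 73.0% (69.9 to 76.0) of mature neutrophils. Of all neutrophils kept they were 45.9% (42.6 to 49.3), 44.1% (40.2 to 48.1) and 44.1% (41.5 to 46.7). The intervals of all 3 libraries overlapped for both of these shares. Shares are of sorted cells, and fewer cells of another type would raise them too.

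**Figure D3:**
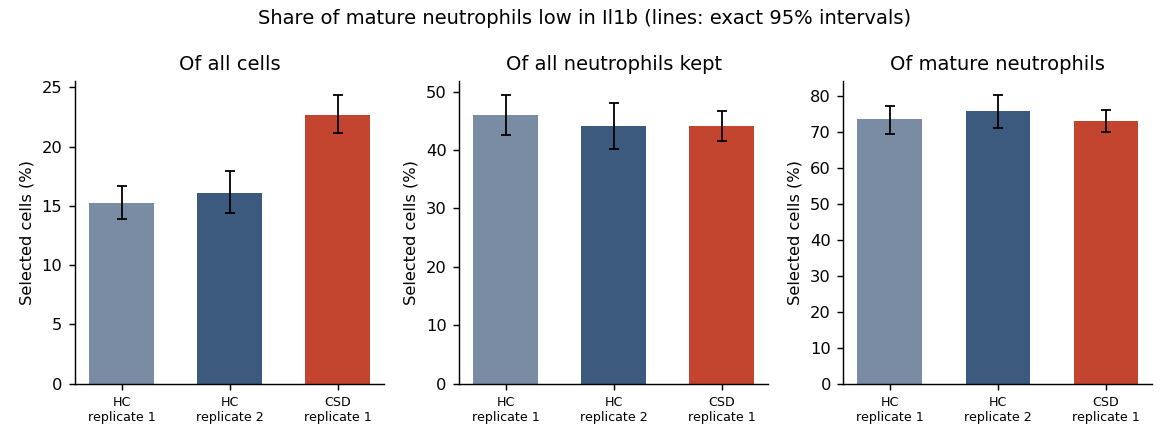
Selected cells as a percentage (y axis, from 0) of all cells, of all neutrophils kept and of mature neutrophils, with 1 bar per library and exact 95% intervals as lines. CSD stands at 22.7% of all cells above 15.3% and 16.1% in HC, while the intervals for the shares among neutrophils overlap.

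To ask which genes differed between CSD and HC in these cells, UMIs were summed per library and the 1062 genes seen in more than 15% of the selected cells were tested with edgeR's quasi-likelihood test (two-sided, Benjamini-Hochberg adjustment over all of them). *Ifitm1* rose and *Mgp* fell at an adjusted p under 0.05, which is 0.188% of the genes tested. At an unadjusted p under 0.05, 54 genes (5.08%) were higher and 37 (3.48%) lower in CSD. CSD lay above both HC libraries for 38.1% and below both for 34.7% of all genes. Counts of genes above or below both HC libraries use TMM-scaled CPM, and the levels printed are CPM without that scaling, in which the order of close libraries can differ. The count of calls moved with the settings, and the cause was not tested. A larger count need not mean larger changes, since the spread used for each gene is shared across genes. With the S100 limit at 8%, which leaves out the 53 cells described above, 36 of 1020 genes (3.53%) passed, *Ifitm1* and *Mgp* among them. DESeq2 on the original cells called 26 of the 897 genes it adjusted (2.9%). With *Camp* and *Ngp* limited to 2%, edgeR called 0 of 998 genes, with 120 at an unadjusted p under 0.05; DESeq2 was not run on those cells.

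*Ifitm1*, an interferon-induced transmembrane protein gene whose family restricts virus entry, stood at 166, 159 and 739 CPM. CSD was far above both HC libraries, which lay close together. The change was 2.24 ± 0.19 on the log2 scale (SE; edgeR adjusted p = 0.0193), and in CPM without TMM scaling CSD was 4.54 times the HC mean of 163 ± 4.96 (SD, n = 2). It was spread over many cells, since the top 3 held 5.53% of the *Ifitm1* UMIs in CSD. After thinning to 500 UMIs, 7.05% (4.74 to 10.0), 8.39% (5.40 to 12.3) and 26.8% (23.4 to 30.5) of the selected cells held an *Ifitm1* UMI (exact 95% intervals), with CSD apart from HC. Unthinned, the shares were 18.4%, 18.2% and 48.1%. In cells with T and NK genes, whose median depth was 2629, 2801 and 2222 UMIs, the thinned shares were 1.75%, 1.26% and 5.42%.

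Empty barcodes carried more *Ifitm1* in CSD as well, at 75.8, 79.4 and 349 CPM. With that free-RNA profile subtracted at the lowest limits, the change was 2.10 ± 0.41 (SE) and passed (edgeR adjusted p = 6.9e-05). The adjusted p was smaller than in the main fit although the change was smaller and its SE larger. At the excessive B cell values the change was 2.10. At the 8% S100 limit the change was 2.20 ± 0.26 (SE; edgeR adjusted p = 7.2e-14), again a smaller change with a larger SE than in the main fit. With *Camp* and *Ngp* limited to 2% the change was 2.10 and did not pass (edgeR adjusted p = 0.09).

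*Ifitm1* lies on chromosome 7 at 140967221 to 140969825 (GRCm38, plus strand, GENCODE), near *Ifitm2*, *Ifitm3* and *Ifitm6*. All 4 were higher in CSD than in both HC libraries. *Ifitm2* stood at 688, 631 and 1308 CPM (log2 change 1.04 ± 0.21, SE; edgeR adjusted p = 0.16). *Ifitm6* stood at 1073, 1222 and 2076 CPM (0.92 ± 0.18; edgeR adjusted p = 0.16) and *Ifitm3* at 1493, 1656 and 2382 CPM (0.66 ± 0.18; edgeR adjusted p = 0.37). These 3 did not pass in edgeR. *Ifitm2* and *Ifitm6* passed with the S100 limit at 8%, and DESeq2 called all 4.

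The start regions are shown because these neighbors lay higher in CSD to different degrees. RefSeq windows (GRCm38.p6) from 250 bases before to 50 after the start matched all 4 genes. They were searched on both strands for the core of the interferon-stimulated response element, GAAA followed by any 2 bases and GAAA, which is in 3.44% of 32841 such windows. *Ifitm2* and *Ifitm3* held it, and *Ifitm1* and *Ifitm6* did not hold these letters in their windows. RefSeq and GENCODE place the starts differently: GENCODE transcripts of *Ifitm1* start at 140967221, 140968028 and 140968040, so its RefSeq window lies inside the GENCODE gene and the region before the first of these starts was not searched. Those of *Ifitm6* (minus strand) start at 141016908, 141017558 and 141017924, and the regions before the last 2, which lie upstream of its window, were not searched either. GENCODE starts *Ifitm3* (minus strand) at 141010770, so its 2 matches lie after the start in both annotations. A match describes letters, not a bound site. The sequences read 5′ to 3′ on the gene's strand with matches in capitals: the 202 bases of the *Ifitm1* window before the second GENCODE start (chr7:140967826-140968027, plus strand), 30 bases of *Ifitm2* (chr7:140955988-140956017, minus strand, bases -56 to -27 from the RefSeq start) and the first 30 bases from the RefSeq start of *Ifitm3* (chr7:141010715-141010744, minus strand).
Ifitm1: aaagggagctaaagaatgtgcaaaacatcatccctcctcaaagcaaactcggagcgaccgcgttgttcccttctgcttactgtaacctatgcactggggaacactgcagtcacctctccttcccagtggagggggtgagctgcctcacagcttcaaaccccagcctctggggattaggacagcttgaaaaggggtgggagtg
Ifitm2: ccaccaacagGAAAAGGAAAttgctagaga
Ifitm3: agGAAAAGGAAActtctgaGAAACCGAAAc

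Of the 40 interferon-stimulated genes listed, 8 passed the filter on detection. CSD was above both HC libraries for 7 of them, 4 had an unadjusted p under 0.05 in that direction and 1, *Ifitm1*, passed after adjustment. Their median log2 change was 0.57, against -0.01 over all genes tested. *Slfn2* was at 739, 615 and 910.1 CPM and *Ifi27l2a* at 394, 326 and 441 CPM, with CSD over the higher HC library. *Samhd1*, a nucleotide hydrolase, was at 231, 315 and 212 CPM. Thinned cells with at least 2 UMIs of core interferon-stimulated genes were rare: 2.02%, 3.65% and 3.83% of the selected cells, and 4.90%, 2.52% and 3.25% of the cells with T and NK genes.

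**Figure D4:**
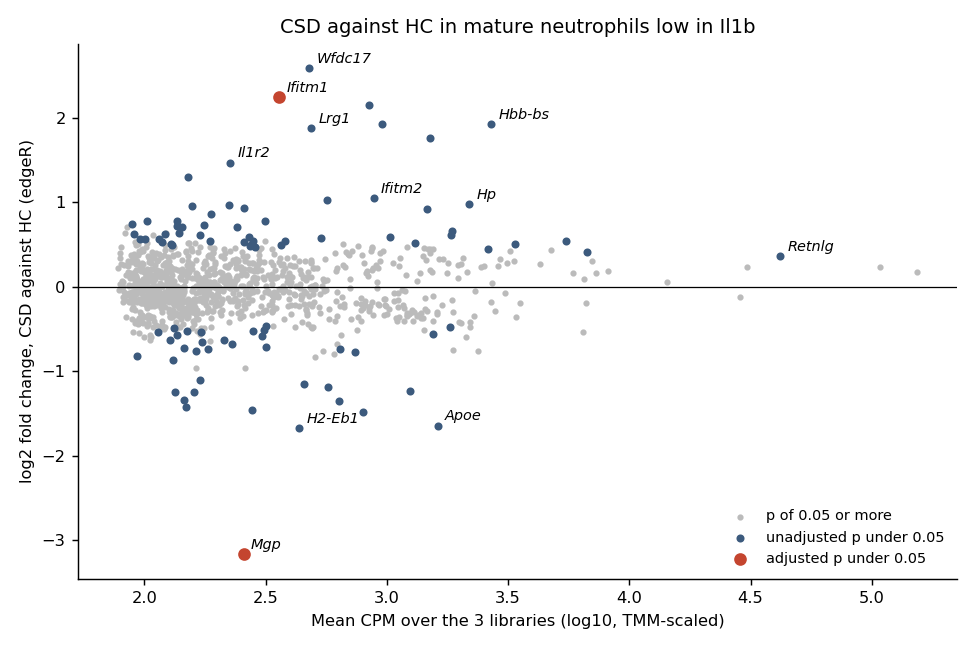
log2 fold change of CSD against HC from edgeR (y axis) against mean CPM (x axis, log10) for the 1062 genes tested in the selected cells, with 1 point per gene and unadjusted p under 0.05 in blue. The red points *Ifitm1* (2.24) and *Mgp* (-3.17) passed after adjustment.

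*Wfdc17* stood at 225, 135 and 1052 CPM, a log2 change of 2.58 ± 0.34 (SE) that missed the threshold (edgeR adjusted p = 0.107). CSD was above both HC libraries, and the change was 3.06 without HC replicate 1, 2.24 without the other and 2.92 with the free-RNA profile subtracted at the lowest limits. At the B cell values the *Wfdc17* change was 5.09 and passed (edgeR adjusted p = 0.0286). Of 9 genes tested on the protease inhibitor list, which holds serpin, stefin and annexin genes beside secreted inhibitors, 8 were above both HC libraries, among them *Slpi*, and 1 was below, *Cst3* (cystatin C), at 1827, 1689.9 and 1149 CPM. *Lrg1*, a glycoprotein gene of acute inflammation, stood at 205, 324 and 921 CPM, a change of 1.88 ± 0.28 (SE; edgeR adjusted p = 0.107). Directions of *Cst3*, *Serpinb1a* and *Cstb* turned under other settings: *Cst3* was at 8.87 and *Serpinb1a* at -0.12 with the profile subtracted at the B cell values, *Cst3* at 0.030 at the lowest limits, and *Cstb* at -0.27 after thinning. *Hp*, haptoglobin, stood at 1469, 1892 and 3151 CPM and *Lcn2*, the iron-withholding lipocalin 2, at 4341, 5399 and 6741 CPM. All 3 acute-phase genes tested were above both HC libraries. With the S100 limit at 8%, edgeR called *Wfdc17*, *Lrg1* and *Hp*, and DESeq2 called them in the original cells. Over all alternatives with a test, *Wfdc17* passed in 11 of 13, *Lrg1* in 9 of 13 and *Hp* in 6 of 13.

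In the interleukin-1 family, *Il1r2*, the decoy receptor that binds interleukin-1 without signaling, stood at 126, 165 and 381 CPM. CSD was above both HC libraries. The log2 change was 1.47 ± 0.21 (SE; edgeR adjusted p = 0.107), and it passed at the 8% S100 limit and in DESeq2. Over all alternatives with a test, *Il1r2* passed in 10 of 13. *Pycard*, the inflammasome adaptor, was at 95.7, 131 and 183 CPM. *Il1b*, bounded by the rule, was at 203, 245 and 221 CPM.

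Chemokine genes did not move together. *Ccl6* was at 2671, 2775 and 2687 CPM, close in all 3 libraries. *Ccl3* was at 169.9, 202 and 69.8 CPM and *Ccl4* at 177, 204 and 67.6 CPM, both encoding macrophage inflammatory proteins. CSD was below both HC libraries, by -1.34 ± 0.22 and -1.43 ± 0.22 on the log2 scale (SE; edgeR adjusted p = 0.121 and 0.107), and DESeq2 called both. Over all alternatives with a test, *Ccl3* passed in 5 of 10 and *Ccl4* in 9 of 14, *Ccl4* at the 8% S100 limit among them (edgeR adjusted p = 0.00957). With the free-RNA profile subtracted at the lowest limits the changes were -1.56 and -1.59 and passed (edgeR adjusted p = 0.00126 and 0.00342). At the B cell values they were -8.63 and -7.81 and did not pass. Of 9 cytokine and NF-kB genes tested, 5 were below and 2 above both HC libraries, with a median log2 change of -0.41.

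Granule, receptor and oxidase lists had small median changes, and several of their genes belong to the rule. Of 10 specific granule genes tested, *Camp* and *Ngp* of the rule among them, 7 were above and 2 below both HC libraries with a median log2 change of 0.18. The 5 genes tested on the gelatinase granule list, in which *Mmp8* was counted, had a median of -0.05. Of these *Retnlg*, *Mmp8* and *Mmp9* are genes of the rule and only *Adam8*, a metalloprotease gene, and *Itgam*, an integrin chain, are not. Of 14 formyl peptide, lectin and pattern receptors, 12 were above both HC libraries with a median of 0.30, among them *C5ar1*, the complement C5a receptor, at 199.8, 259 and 314 CPM. *Ccr1*, a CC chemokine receptor, was at 183, 229 and 232 CPM, and *Cxcr4*, the marrow-retention receptor, was under the filter at 31.1, 35.6 and 11.1 CPM. The 8 NADPH oxidase genes had a median of 0.15 and the 24 actin and Arp2/3 genes 0.13. These 5 lists had 0 genes past adjustment in edgeR, and 3, 1, 2, 1 and 0 genes, in the order given, at an unadjusted p under 0.05. DESeq2 called 2, 1, 0, 0 and 0 of them, namely *Hp*, *Lcn2* and *Retnlg*, the last a gene of the rule. At the 8% S100 limit edgeR called 1 specific granule gene, *Hp*, and 1 receptor gene, *Pirb*, both higher (adjusted p = 0.0024 and 0.0312).

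Of 79 cytosolic ribosomal protein genes tested, 68 were below both HC libraries and 1 above, with a median log2 change of -0.31. The ribosomal protein genes took 10.5, 9.21 and 7.61 percent of the UMIs, and 185809, 173986 and 160522 CPM in the empty barcodes. Of 8 mitochondrially encoded genes, 7 were below both, with a median of -0.48. Immediate early genes, which respond within minutes to stimulation and to tissue dissociation, were below both HC libraries for 7 of 10 (median -0.35), with *Fos* at 1111, 1285 and 885 CPM and *Junb* at 646, 830.0 and 474 CPM. Glucocorticoid-responsive genes were mixed, with 2 of 7 above and 3 below both. *Tsc22d3*, the glucocorticoid-induced leucine zipper, was at 195, 204 and 216 CPM and *Dusp1*, a phosphatase gene, at 623, 667 and 589.9 CPM. These 4 lists had 0 genes past adjustment in edgeR. At an unadjusted p under 0.05, 2, 4, 1 and 1 of their genes were lower and 1, *Il1r2* on the glucocorticoid list, was higher, which DESeq2 called as a rise. At the 8% S100 limit edgeR called *Rps27*, *Rps28*, *Rps29* and *Mt1* (a metallothionein gene) lower and *Il1r2* higher. On a separate list of RNA quality, led by *Malat1*, 3 of 4 genes tested were below both HC libraries and 1 was between them. That list had a median log2 change of -0.20 and 0 genes past adjustment in edgeR. It summed to 31734, 30008 and 27123 CPM in the selected cells and 22751, 33440 and 22006 CPM in the empty barcodes.

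Genes of other cell types differed between the libraries, in the empty barcodes too. *Mgp*, matrix Gla protein of fibroblasts and cartilage, was at 353, 389.7 and 39.4 CPM. CSD was far below both HC libraries, a log2 change of -3.17 ± 0.22 (SE; edgeR adjusted p = 0.0144). Empty barcodes held 1686, 1353 and 572 CPM of it and cells with T and NK genes 517, 962 and 149 CPM. The 6 fibroblast markers, all detected, summed to 486, 493 and 62.4 CPM in the selected cells and 2541, 1934 and 754 CPM in the empty barcodes, with *Mgp* the most abundant. The lowest limits in HC replicate 2 and in CSD come from these same fibroblast genes. Subtraction therefore removes most *Mgp* in HC replicate 2 and nearly all in CSD by construction, and says nothing about its change. The part of fibroblast RNA in the *Mgp* change was not tested.

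The 4 MHC class II genes tested were below both HC libraries, with a median log2 change of -1.42. *H2-Eb1* stood at 509.6, 637 and 172 CPM and *Cd74*, the invariant chain, at 1319, 1812 and 633 CPM. Few cells carried much of the latter: the top 3 held 21.8%, 47.4% and 41.3% of the *Cd74* UMIs, and the cells under the 8% S100 limit held 5063 CPM against 742 CPM in the others. *H2-Eb1* and *Cd74* did not pass in edgeR (adjusted p = 0.107 and 0.16), while DESeq2 and the 8% S100 limit called all 4 class II genes. Over all alternatives with a test, *H2-Eb1* passed in 10 of 12, *H2-Ab1* in 8 of 12, and *Cd74* and *H2-Aa* in 6 of 12 each. The list of 7 summed to 3749.9, 4566 and 1557 CPM in the selected cells and 12271, 12037 and 5635 CPM in the empty barcodes. The 4 border macrophage genes tested were also below both HC libraries, led by *Apoe*, a lipid carrier, at 3032, 1169 and 653 CPM. Over all alternatives the log2 change of *Apoe* ranged from -9.09 to -0.74 and that of *C1qa* from -7.85 to -0.53. For *C1qb* it ranged from -6.97 to -0.64 and for *C1qc* from -1.38 to -0.31. None of the 4 passed in edgeR (adjusted p = 0.558 for each) or DESeq2, 3 had an unadjusted p under 0.05, and the 8% S100 limit called all 4 lower. *Apoe* also passed in edgeR after subtraction at the lowest limits (-1.71, adjusted p = 0.0124), and the complement genes *C1qb* and *C1qc* passed as lower without the highest Scrublet scores (edgeR adjusted p = 0.0263 and 0.0441). The 7 border macrophage markers summed to 5335, 2289 and 1379 CPM in the selected cells and 11855, 4699.7 and 5074 CPM in the empty barcodes.

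The 4 globin genes tested were above both HC libraries, with a median log2 change of 1.92. Over all alternatives the change ranged from 1.29 to 3.03 for *Hbb-bs* and 1.44 to 8.94 for *Hbb-bt*. For *Hba-a1* it ranged from 1.14 to 2.79 and for *Hba-a2* from 1.12 to 3.29. None passed in edgeR (adjusted p = 0.16 to 0.37) or DESeq2, all 4 had an unadjusted p under 0.05, and the 8% S100 limit called all 4 higher. With the free-RNA profile subtracted at the lowest limits, edgeR called all 4 higher, by 2.79 to 3.29 (*Hbb-bs* 3.03). That setting takes 14.8% and 25.5% from the HC libraries and 8.27% from CSD. For genes this abundant in empty barcodes, part of the wider change therefore comes by construction. Without the highest Scrublet scores edgeR called 3, all but *Hba-a1*. *Hbb-bs*, adult beta globin, was at 911, 1954 and 5143 CPM, and 2 cells held 2591 and 949 of its 6923 UMIs in CSD. The 5 erythroid markers summed to 1949.7, 4479.6 and 11439 CPM in the selected cells and 5234, 14422 and 28501 CPM in the empty barcodes. Markers of B cells summed to 288, 603 and 202 CPM and those of endothelium to 3.59, 3.75 and 3.71 CPM. The part of these cell types in the differences was not tested.

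**Figure D5:**
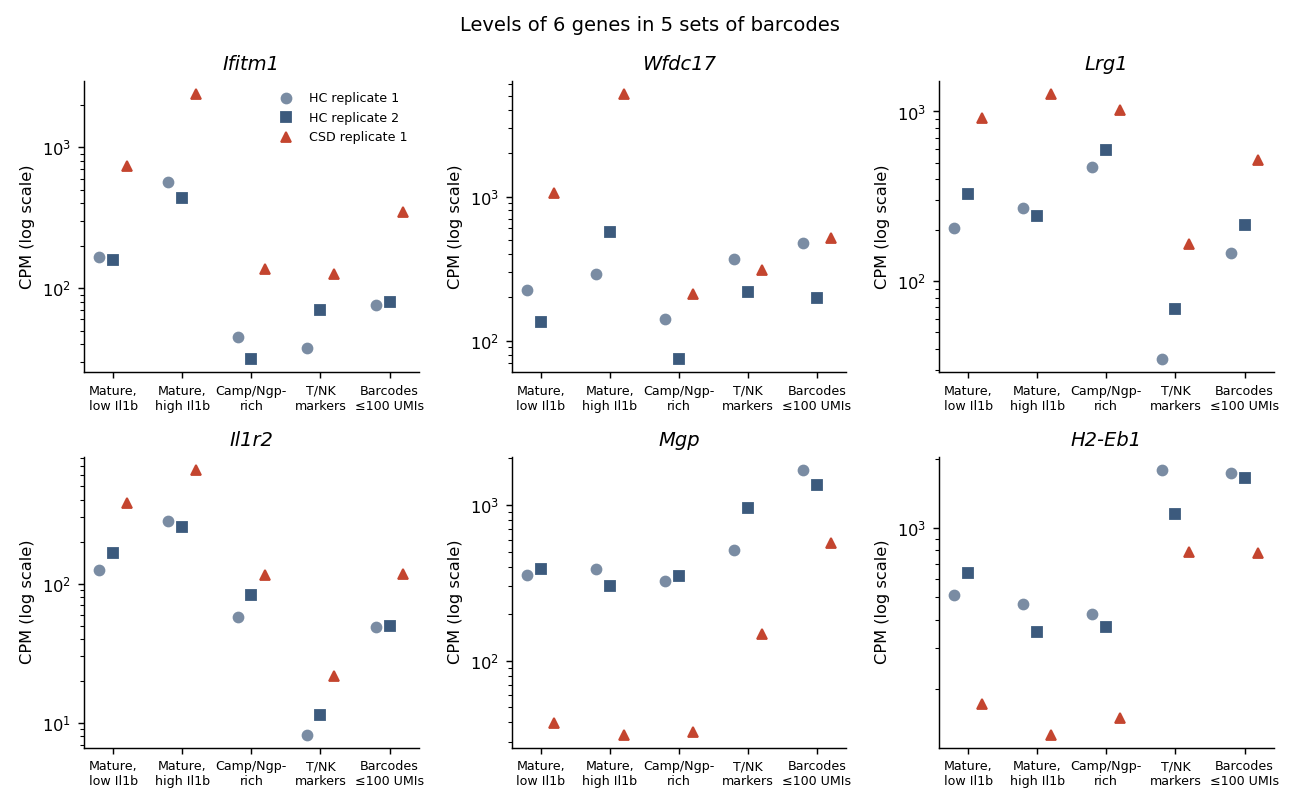
Levels in CPM (y axis, log scale) of 6 genes in 5 sets of barcodes (x axis), with 1 point per library. CSD lies above both HC libraries for *Ifitm1*, *Lrg1* and *Il1r2* and below both for *Mgp* and *H2-Eb1* in all 5 sets, while *Wfdc17* lies between the HC libraries in the cells with T and NK genes (371, 219 and 311 CPM).

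Whether the CSD changes differed from those in other neutrophils was tested as an interaction over 6 sums with library as a block. Against the mature neutrophils high in *Il1b*, 10 of 1072 genes (0.933%) passed, of which 3 were genes the rule uses. The *Ifitm1* difference was -0.10 ± 0.28 on the log2 scale (SE; edgeR adjusted p = 0.992), and the cells high in *Il1b* held 569, 435 and 2381 CPM. *Wfdc17* changed less in the selected cells, by -1.24 ± 0.25 (SE; edgeR adjusted p = 0.00027), beside 288, 567 and 5126 CPM in the cells high in *Il1b*. Leaving out HC replicate 1 moved that value to -0.29 and leaving out the other to -1.98, and it did not pass after thinning, without the detection filter or in DESeq2.

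Against the immature neutrophils, 28 of 2176 genes (1.29%) passed, 23 of them with the higher value in the selected cells. *Wfdc17* differed by 1.72 ± 0.19 (log2, SE; edgeR adjusted p = 3.5e-16), beside 142, 74.8 and 209.5 CPM in the immature cells, and it passed in all 4 alternatives that gave a test. *Lrg1* differed by 0.99 ± 0.16, *Il1r2* by 0.75 ± 0.21 and *Ifitm2* by 0.67 ± 0.14 (SE; edgeR adjusted p = 9.0e-08, 0.0378 and 0.00063). Of the 4 alternatives with a test, *Lrg1* passed in 2 (range 0.52 to 1.18 over all alternatives), *Il1r2* in 0 (0.36 to 0.79) and *Ifitm2* in 1 (0.30 to 0.73). The *Ifitm1* difference was 0.50 ± 0.23 and did not pass (SE; edgeR adjusted p = 0.412), beside 45.0, 31.5 and 137 CPM in the immature cells.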

How the data were processed

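Per the labels and the study's methods, meninges were digested, live nucleated singlets sorted (DAPI- DRAQ5+) and 3′ libraries made with 10x Chromium v2. The submitters' processing notes name Cell Ranger 2 and mm10; no source used here gives the annotation. The deposited counts are whole UMIs for every barcode, neither normalized nor limited to cells by the authors. The library of a barcode was its suffix, taken as the group number in the labels. There were 0 unused columns of per-sample values. Of the 366 listed symbols, *Itgam* (on 2 rows of the files) was read by its identifier ENSMUSG00000030786 and *Il36g* and *Pclaf* under the files' names, *Il1f9* and *2810417H13Rik*, and 3 without a row were not analysed here.

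The selected cells and the gene lists were chosen with earlier results of these data known. UMIs were summed per library and tested with edgeR 4.0.16 (glmQLFit and glmQLFTest, TMM) in R 4.3.3. HC replicates supplied the only residual degree of freedom (1), so CSD was taken to have the same spread. Both tools share information on spread across genes, so the size of a p-value also depends on the other genes in that fit. DESeq2 1.42.0 was the alternative tool and scanpy 1.11.5 ran Scrublet. Nothing says that pools were independent cohorts, so p-values may measure technical spread. Intervals cover counting error only.

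Genes named by rule were the markers, genes past the threshold, list members that passed with up to 4 others by level, the 10 highest and lowest beside each other neutrophil set by their smallest log2 ratio over libraries, the 15 most variable (mean of at least 0.05 UMIs) and genes past an interaction. Others, such as *Wfdc17*, *Lrg1*, *Il1r2*, *Ccl3*, *Tnfaip2* and *Mpo* in the comparisons where they missed that rule, were chosen after their values were seen. Scripts were tested on simulated data.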

Additional observations from a re-analysis of the deposited data

Results flagged for a closer look

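The CSD change of these genes differed between the selected cells and another neutrophil set (edgeR interaction, adjusted p under 0.05). Values are differences of log2 changes, selected cells minus the other set, and their cause was not tested. Groups of 1 and 2 libraries were too small to look for outlying samples.

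Against mature neutrophils high in *Il1b*, the differences were 0.88 for *Hbb-bs* and 1.10 for *Hba-a2*, both globins, of which *Hbb-bs* rested in part on the 2 CSD cells named above. They were -1.24 for *Wfdc17*, -1.16 for the stefin gene *Gm5483*, -0.27 for the nuclear RNA *Malat1*, and -1.51 and -1.48 for *Omp*, a gene of olfactory neurons, and *S100a5*. Of 4 alternatives with a test, *Omp* and *S100a5* passed in 0, *Hba-a2*, *Wfdc17*, *Gm5483* and *Malat1* in 1 and *Hbb-bs* in 2. Over all alternatives *Hba-a2* ranged from 0.16 to 1.43, *Hbb-bs* from 0.29 to 1.03, *Wfdc17* from -1.98 to -0.29, *Omp* from -1.80 to -0.86, *S100a5* from -2.06 to -0.72, *Malat1* from -0.30 to -0.15 and *Gm5483* from -1.32 to -0.96, and 3 cells held 59.0% of the *Omp* UMIs in HC replicate 1 and 29.9% in HC replicate 2. *S100a8*, *S100a9* and *Camp* also passed but belong to the rule.

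Against immature neutrophils the value was 1.72 for *Wfdc17*, 0.99 for the acute-phase gene *Lrg1* and 0.75 for the decoy receptor *Il1r2*. The globins *Hbb-bs* (0.99), *Hba-a2* (1.17), *Hbb-bt* (1.13) and *Hba-a1* (0.99) followed. They passed in 2, 3, 3 and 2 of 4 alternatives with a test, with ranges of 0.10 to 1.19, 0.51 to 1.44, 0.40 to 1.27 and 0.23 to 1.27 over all alternatives, and *Hbb-bs* again rested in part on the same 2 CSD cells, with 2591 and 949 of 6923 UMIs. Interferon-induced genes were *Ly6e* (0.81), *Ifitm2* (0.67) and *Ifi27l2a* (0.84). Genes of lysosomes and phagocytes were *Lgmn* (1.38), *Smpdl3a* (0.84), *Cd68* (0.95), *Laptm4a* (0.86) and *Cst3* (0.45). The others were *Sepp1* (0.97), *Gyg* (1.02), *Fxyd5* (0.51), *Ucp2* (0.65), *Wfdc21* (0.37), *Tspo* (0.52), *Pycard* (0.71) and the mitotic *Top2a* (1.12). The value was negative for the basophil protease gene *Prss34* (-1.15), *Serpine2* (-2.69), *Gng13* (-1.22), *S100a5* (-0.93) and *Cd81* (-0.91). Of these 28 genes, 15 passed in at least 1 of the 4 alternatives with a test. *Il1r2*, *Smpdl3a*, *Cd68*, *Laptm4a*, *Cst3*, *Sepp1*, *Gyg*, *Fxyd5*, *Ucp2*, *Wfdc21*, *Tspo*, *Pycard* and *Top2a* passed in 0, *Serpine2*, *S100a5*, *Gng13*, *Cd81*, *Ifitm2*, *Lgmn* and *Ly6e* in 1, and *Prss34*, *Lrg1* and *Ifi27l2a* in 2. Over all alternatives *Pycard* ranged from 0.20 to 1.07, *Serpine2* from -2.75 to -1.10 and *Prss34* from -1.79 to -0.88. *S100a5* ranged from -1.41 to -0.29, *Gng13* from -1.29 to -0.54 and *Cd68* from 0.65 to 1.68. The ranges were 0.40 to 1.05 for *Gyg*, 0.67 to 1.43 for *Smpdl3a* and 0.91 to 2.31 for *Lgmn*. They were 0.43 to 0.90 for *Ly6e*, 0.62 to 0.98 for *Sepp1*, 0.26 to 0.52 for *Cst3* and 0.24 to 0.37 for *Wfdc21*.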

How the results depend on the processing

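The count of genes called between CSD and HC was the least stable result. Against 2 genes, edgeR called 8 with RLE size factors, 156 with no detection filter, 10 after subtracting the empty-droplet profile at the B cell values and 16 at the lowest limits (chosen after seeing the data), 10 after thinning, 5 at a mitochondrial limit of 5%, 35 and 51 at *Il1b* limits of 0.05% and 0.30%, 36 at an S100 limit of 8%, 14 without the highest Scrublet scores (ties included) and 0 at a *Camp* and *Ngp* limit of 2%; DESeq2 called 26. A minimum of 1000 UMIs gave 2, and leaving out genes that differ between empty barcodes, *Ifitm1* and *Mgp* among them, gave 3 (*Asprv1*, *Ccl3* and *Ccl4*). The cause of these differences was not tested. *Ifitm1* ranged from 2.01 to 2.46 and *Mgp*, apart from the lowest-limit subtraction (-9.16), from -3.68 to -2.95 (log2). *Ifitm1* had 13 alternatives with a test and *Mgp* 12, with none for *Mgp* after subtraction at the B cell values. Among these, both missed the threshold at the 2% limit only (edgeR adjusted p = 0.09 and 0.0701). Without 1 HC replicate no residual degrees of freedom remained, so values without a test were 2.17 to 2.31 for *Ifitm1* and -3.19 to -3.13 for *Mgp*. *Cst3* (8.87, and 0.030 at the lowest limits) and *Serpinb1a* (-0.12) turned direction after subtraction at the B cell values and *Cstb* (-0.27) after thinning and *Il1f9* (0.027) with no detection filter, out of 45 genes followed in that comparison. The interaction with cells high in *Il1b* gave 10 genes, against 0 with no filter (255 at an unadjusted p under 0.05), 1 after thinning and 5 by DESeq2, and that with immature cells 28, against 18, 2 and 3. The S100 limit of 8%, chosen for both after seeing the data, gave 6 and 10. The CSD excess in the share of all cells was 7.63 points at 1000 UMIs and 5.12 and 7.96 points at *Il1b* limits of 0.05% and 0.30%, against 7.03, and 6.62 to 7.44 points without 1 HC replicate. The difference in the share of mature neutrophils was -2.65 to -0.337 points without 1 HC replicate. No paired analysis was possible because the groups share fewer than 2 replicate numbers.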
